A study of Mus musculus with 12 samples.

Results

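Curcumin and swimming were read here as the factors of a 2 by 2 design, and every gene was asked whether the combination gave the sum of the single effects on the log scale. All 12 libraries of the study entered, 3 in each of 4 groups, and the contrast was the curcumin effect with swimming minus the curcumin effect without it. Of 21899 genes in the table, 13638 had enough counts to be tested. The result is called a departure: a positive value means that the combination stood above the level expected when both single fold changes are multiplied, and a negative value that it stood below. A departure says nothing on its own of whether a tumour fared better or worse.

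The tissue was the tumour that 4T1-LUC cells, a derivative of the mouse mammary carcinoma line 4T1, formed under the skin of 4 to 6 week old mice of the BALB/c strain. Combination mice received curcumin at 100 mg/kg in corn oil by gavage each afternoon and swam for 30 min afterwards, curcumin mice received the same gavage without swimming, swimming mice received corn oil and swam, and control mice received corn oil alone. The gavage volume was 200 µL in all groups, and all groups carried the tumour. The labels give 5 mice per group and do not tie libraries to mice or tumours, so each p describes variation among these libraries, which may be technical.

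Curcumin is a plant polyphenol that acts on many proteins, among them regulators of the NF-kB and Nrf2 pathways. Exercise changes blood flow, oxygen supply and hormone levels, and in tumours has been linked to vessel structure and immune cell entry. Tumour vessels are lined by endothelial cells and wrapped by pericytes, and cells far from them switch on hypoxia-inducible and glycolytic genes through the factor HIF-1. These are textbook facts and not results of these libraries.

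Levels are in CPM, counts scaled to library size. Library totals ran from 15069348 to 17278826 counts. Spread beyond counting noise, which edgeR calls the biological coefficient of variation, differed between groups. It was 6.47% in combination, 12.4% in curcumin, 16.4% in swimming and 26.6% in control libraries. The main test used a shared estimate of each gene's spread for all groups, so its standard errors and adjusted p values rest on that estimate. Control 2 stood apart from the other control libraries: its level of 17 skeletal muscle genes, as mean centred log2 CPM, was -3.02, against 0.62 and 1.78 in control 1 and 3, and that of 28 cell cycle genes was -1.17, against 0.15 and -0.02. Swimming 2 had a muscle level of -2.29, against -0.40 and 0.20 in swimming 1 and 3. Mitochondrially encoded genes took 4.86% to 6.10% of counts in combination, 3.34% to 4.06% in curcumin, 4.36% to 4.87% in swimming and 2.96% to 4.30% in control libraries. The part of these differences in the departures was not tested. The epithelial marker Epcam, which fits the mammary carcinoma label, averaged 331 ± 1.44 CPM in combination libraries, 261 ± 8.64 in curcumin libraries, 289 ± 11.5 in swimming libraries and 338 ± 26.6 in control libraries (SD, n = 3 each, as for all later means).

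Departures past the threshold were few. edgeR called 19 of 13638 genes at an adjusted p of 0.05 or below, which is 0.139% of the genes tested. Of these, 11 stood above the expectation (0.0807%) and 8 below it (0.0587%). The median departure over all genes was 0.003 (log2), with quartiles of -0.20 and 0.20, and 50.4% of genes were positive. At an unadjusted p under 0.05 there were 747 genes above the expectation (5.48%) and 760 below it (5.57%). In the plot of observed against expected effects the called genes lay off the additive line, on both sides of it.

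**Figure D1:**
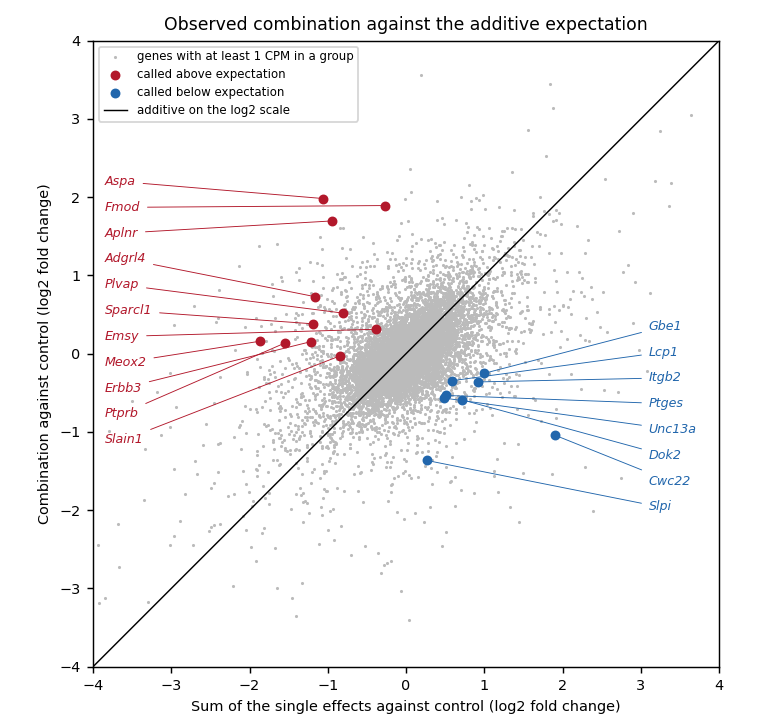
Each point is a gene with at least 1 CPM in a group mean; the horizontal axis gives the sum of the curcumin and swimming log2 fold changes against control, and the vertical axis the combination's log2 fold change against control. Red marks the 11 genes called above the expectation, blue the 8 called below, the line is additivity, and 26 genes outside the axes are not drawn. Both axes share the control libraries, so the scatter along the line is not a result.

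The number of calls depended on single libraries. Leaving out control 2 gave 448 calls and leaving out swimming 2 gave 95, and both kept all 19. Without control 2, 197 genes (1.43% of 13820 tested) were called above the expectation and 251 (1.82%) below it. Leaving out control 2 and swimming 2 together gave 984 calls. Without combination 1, 2 or 3 the calls numbered 0, 1 and 0, without curcumin 1, 2 or 3 they numbered 4, 7 and 1, and without swimming 1 there were none. In every one of these fits all 19 genes kept their sign, but they had been selected for departures that are large for their error. Of the fits that left out 1 library, that without control 2 gave the most calls. Any gene said below to pass without control 2 did not pass without combination 1, combination 3 or swimming 1.

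For all 11 genes above the expectation, the 3 combination libraries lay above the 3 curcumin and the 3 swimming libraries. For 7 of the 11 they also lay above the 3 control libraries. For all 8 genes below the expectation, the combination libraries lay below every library of the other groups. These counts describe the called genes, which the same values selected. The share of all tested genes that separated in this way was not counted, so the counts have no background to be set against.

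Ptprb, Plvap and Aplnr, of the endothelial list, were called above the expectation. Ptprb (chromosome 10, 116111428 to 116225440 in the deposited table) encodes the endothelial phosphatase VE-PTP, which acts on the receptor Tie2 and on VE-cadherin. Its level was 32.7, 28.9 and 32.7 CPM in combination libraries, 25.2, 18.2 and 22.9 in curcumin libraries, 12.5, 11.8 and 13.6 in swimming libraries and 27.0, 28.1 and 30.8 in control libraries. Swimming libraries were the lowest, curcumin libraries lay between, and combination libraries overlapped control libraries. The product of the single effects gave an expected 9.77 CPM for the combination, against 31.5 CPM observed. The departure was 1.69 ± 0.18 (log2, SE) with an adjusted p of 0.00816, the smallest of all genes, and ran from 1.56 to 1.79 over the log-scale alternatives.

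Plvap (chromosome 8, 71950409 to 71964396), which forms the diaphragms of fenestrated endothelium, stood at 70.2, 73.3 and 67.2 CPM in combination libraries, 45.9, 44.1 and 52.0 in curcumin libraries, 34.0, 30.7 and 22.4 in swimming libraries and 50.1, 56.7 and 40.2 in control libraries. Combination libraries were above all others, and swimming libraries were below all others. The departure was 1.32 ± 0.22 with an adjusted p of 0.0395. The gene overlaps Gtpbp3 on the other strand, and the strand setting of the counting is not given in the sources used here. Aplnr (chromosome 2, 84966569 to 84970267) encodes the receptor of the peptide apelin, expressed on vessel endothelium. It had 32.0, 27.0 and 28.9 CPM in combination libraries, 13.9, 12.4 and 13.4 in curcumin libraries, 2.41, 5.42 and 1.82 in swimming libraries and 7.33, 7.57 and 12.2 in control libraries. Its order was combination, curcumin, control, swimming, with no overlap between neighbours. The expectation was 4.70 CPM and the observed mean 29.3 CPM, a departure of 2.64 ± 0.44 (adjusted p = 0.0395) that ran from 2.35 to 3.36 over the log-scale alternatives.

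Adgrl4 (chromosome 3, 151143524 to 151250723), an adhesion receptor of endothelium, had 28.7, 33.5 and 27.6 CPM in combination libraries, 16.1, 11.8 and 14.8 in curcumin libraries, 11.2, 12.02 and 7.27 in swimming libraries and 14.6, 20.9 and 18.6 in control libraries. Combination libraries were above all others, and swimming libraries below all control libraries. The departure was 1.90 ± 0.28 (adjusted p = 0.022). Meox2 (chromosome 12, 37158539 to 37229533), a homeobox transcription factor of vessel and muscle precursors, had 7.26, 7.02 and 8.15 CPM in combination libraries, 4.10, 5.42 and 3.98 in curcumin libraries, 3.41, 2.44 and 2.32 in swimming libraries and 6.36, 6.51 and 7.23 in control libraries. Here both single treatments were below control without overlap and the combination overlapped control. The expected 1.83 CPM compared with 7.48 CPM observed, a departure of 2.03 ± 0.29 (adjusted p = 0.022). Sparcl1 (chromosome 5, 104226977 to 104261599), a secreted matricellular protein also known as hevin, stood at 254, 264 and 250.0 CPM in combination libraries, 173, 131 and 156 in curcumin libraries, 121, 125 and 84.7 in swimming libraries and 216, 156 and 217 in control libraries. Its combination libraries were the highest and its departure was 1.57 ± 0.23 (adjusted p = 0.022).

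**Figure D2:**
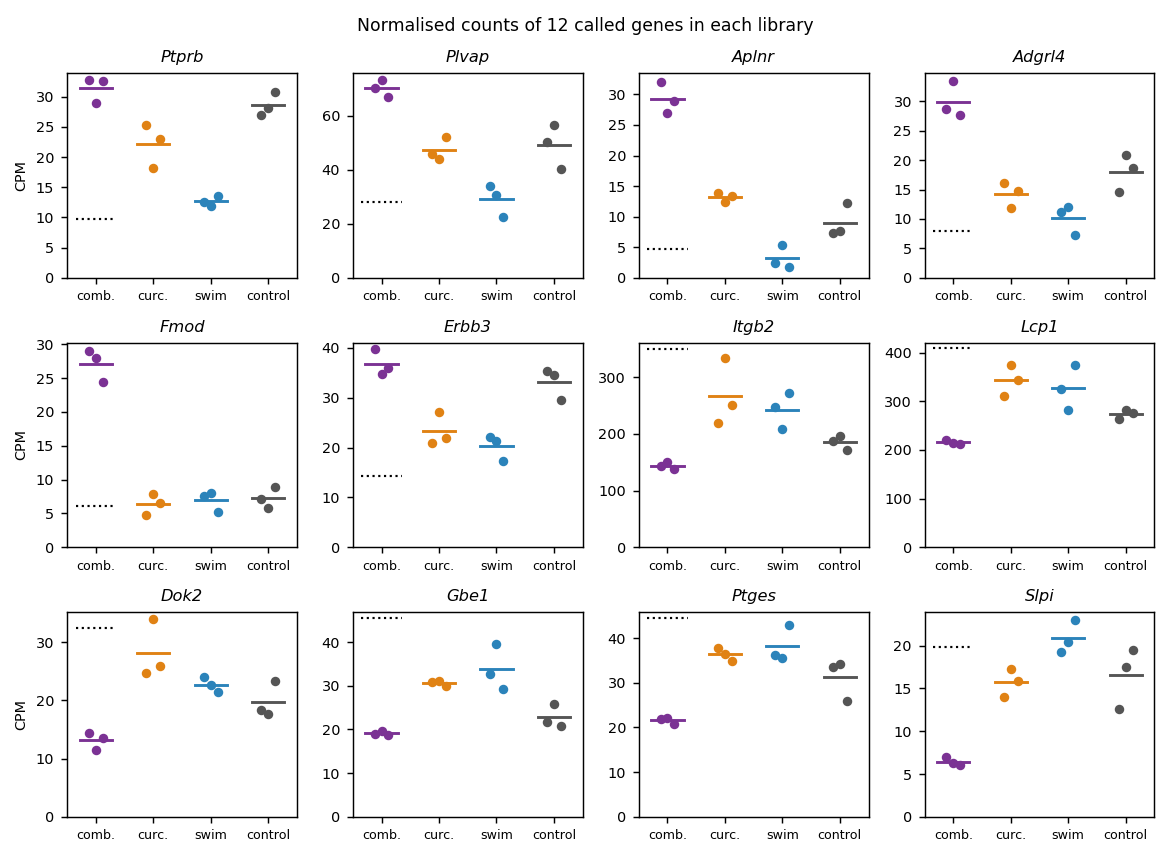
TMM-scaled CPM (vertical axis, from 0) of 12 called genes in each library (points) with group means (bars); the dotted line over the combination is the level expected from the product of the single effects. For the first 6 genes the combination stands above that line, and for the last 6 below it.

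The 17 endothelial markers were then read as a list. This list, like the others, was chosen with earlier results of these data known. Its members were measured in the same 12 libraries, so their counts are not separate pieces of evidence. All 17 were tested and had positive departures, from 0.01 to 2.64. Of these, 3 were called above the expectation (Ptprb, Plvap and Aplnr) and 14 had an unadjusted p under 0.05 in that direction, where 5.48% of all genes did. The median departure of the 17 was 1.15, against 0.003 over all genes, and ran from 1.01 to 1.37 when 1 library was left out. Without control 2, 7 of the 17 were called above the expectation and 0 below it, against 1.43% and 1.82% of all genes. The median swimming effect over the list was -0.75 without curcumin and 0.51 with it, and the median curcumin effect was 1.03 with swimming and -0.12 without it. These medians share libraries and are given side by side. Summed over the list, the level was 862 to 934 CPM in combination libraries, 698 to 701 in curcumin libraries, 487 to 603 in swimming libraries and 665 to 865 in control libraries. In bulk tumour RNA, fewer endothelial cells and less RNA per cell cannot be told apart.

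Other members of the list were picked after their values were seen. Pecam1, the adhesion molecule CD31, had 131, 145 and 129.98 CPM in combination libraries, 90.6, 117 and 102 in curcumin libraries, 72.1, 73.7 and 53.6 in swimming libraries and 125, 119 and 91.8 in control libraries. Its combination libraries were the highest and its swimming libraries the lowest. The departure of 1.14 ± 0.20 missed the threshold (adjusted p = 0.0548). Tek, the receptor Tie2 on which Ptprb acts, averaged 10.4 ± 0.793 CPM in combination libraries, 6.72 ± 2.32 in curcumin libraries, 2.66 ± 0.577 in swimming libraries and 7.58 ± 2.55 in control libraries with a departure of 2.14 ± 0.41 (adjusted p = 0.0612). Emcn, a sialomucin of capillaries and veins, averaged 38.3 ± 4.11 CPM in combination libraries, 19.2 ± 2.17 in curcumin libraries, 12.4 ± 4.01 in swimming libraries and 19.2 ± 4.32 in control libraries and departed by 1.62 ± 0.31 (adjusted p = 0.0612). Cdh5, which encodes VE-cadherin, departed by 1.71 ± 0.40 (adjusted p = 0.138). Without control 2, where 448 genes were called in all, these genes passed with smaller departures. They were 1.10 with adjusted p = 0.0173 for Pecam1 and 1.84 with adjusted p = 0.0217 for Tek. For Emcn the value was 1.43 with adjusted p = 0.0216 and for Cdh5 1.31 with adjusted p = 0.0381. Without swimming 2, Pecam1 (adjusted p = 0.0332) and Emcn (0.0276) passed, and Tek (0.0565) and Cdh5 (0.0697) did not. Without combination 1, combination 3 or swimming 1 no gene passed.

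A pair of endothelial genes, also picked after their values were seen, departed little. Eng, a co-receptor for TGF-beta on endothelium, averaged 182 ± 4.96 CPM in combination libraries, 197 ± 0.939 in curcumin libraries, 184 ± 20.7 in swimming libraries and 201 ± 29.3 in control libraries. The groups overlapped and the departure was 0.01 ± 0.15 (adjusted p = 0.986). Flt1, a receptor for VEGF, departed by 0.23 ± 0.27 (adjusted p = 0.815). Both changed sign when a library was left out. No called gene did so, but called genes were selected for departures large for their error, so this comparison carries no information.

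Of 11 tested pericyte and smooth muscle markers none was called and 8 were positive. Of the 11, 5 had an unadjusted p under 0.05 above the expectation, where 5.48% of all genes did. The list's median was 0.54 (0.25 to 0.78 when 1 library was left out). Rgs5, a signalling regulator that marks pericytes, averaged 51.5 ± 4.31 CPM in combination libraries, 40.5 ± 3.24 in curcumin libraries, 16.6 ± 2.02 in swimming libraries and 38.8 ± 15.9 in control libraries. The swimming libraries were below all others, and the departure was 1.57 ± 0.33 (adjusted p = 0.0861). Abcc9, a subunit of pericyte potassium channels, departed by 1.16 ± 0.24 (adjusted p = 0.0861). Without control 2 both passed, with departures of 1.84 with adjusted p = 0.000517 for Rgs5 and 1.19 with adjusted p = 0.026 for Abcc9.

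Among 25 collagen and matrix genes, 23 were positive, 4 had an unadjusted p under 0.05 above the expectation, and 1, Fmod, was called. Over all genes, 5.48% had such a p above the expectation and 0.0807% were called above it. Fmod (chromosome 1, 133964992 to 133976015) encodes fibromodulin, a proteoglycan that binds collagen fibrils. It had 29.0, 27.9 and 24.4 CPM in combination libraries, 4.70, 7.90 and 6.55 in curcumin libraries, 7.50, 8.06 and 5.20 in swimming libraries and 7.15, 5.86 and 8.87 in control libraries. Curcumin, swimming and control libraries overlapped one another, and only the combination stood apart from them. With single effects of -0.19 (curcumin) and -0.08 (swimming), the expected level was 6.06 CPM, and the departure was 2.16 ± 0.32 (adjusted p = 0.022). Col11a1, a chain of fibrillar collagen XI, had the same layout, with 18.4 ± 1.79 CPM in combination libraries, 4.18 ± 0.2 in curcumin libraries, 5.13 ± 1.04 in swimming libraries and 4.64 ± 2.71 in control libraries. Its departure of 1.99 ± 0.51 did not pass the threshold (adjusted p = 0.169) unless control 2 was left out (2.40 with adjusted p = 0.000569). Without control 2, 7 of the 25 were called above and 1 below the expectation, against 1.43% and 1.82% of all genes. The median over the matrix list was 0.49 (0.33 to 0.77 when 1 library was left out). That over 12 fibroblast markers was 0.51 with none called on all 12 libraries. It was 0.24 without control 3, where 7 of 12 were positive. Without control 2 it was 0.78, and 2 of 12 were called above the expectation, against 1.43% of all genes.

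The remaining genes above the expectation were of mixed function. Erbb3 (chromosome 10, 128403392 to 128425521) encodes the neuregulin receptor that pairs with Erbb2. It had 39.8, 34.8 and 36.0 CPM in combination libraries, 20.9, 27.2 and 21.9 in curcumin libraries, 22.2, 21.3 and 17.2 in swimming libraries and 35.4, 34.6 and 29.5 in control libraries. Both single treatments lay below control without overlap, and the combination overlapped control. The departure was 1.37 ± 0.19 (adjusted p = 0.022), from 1.27 to 1.49 over the log-scale alternatives. Aspa (chromosome 11, 73195818 to 73220422), an enzyme that splits N-acetylaspartate, had 7.51, 6.90 and 7.96 CPM in combination libraries, 2.29, 1.83 and 1.28 in curcumin libraries, 0.937, 1.06 and 0.815 in swimming libraries and 2.30, 1.24 and 2.10 in control libraries. The combination was the highest, and the departure of 3.04 ± 0.42 (adjusted p = 0.022) was the largest of the called genes in size. Adipocyte markers, of which 8 were tested, had mean centred levels of 1.34 to 1.46 in combination libraries, against -0.60 to -0.29 in curcumin, -1.19 to 0.52 in swimming and -1.29 to -0.15 in control libraries. Of the 8, 5 were positive and 3 negative, with a median departure of 0.36 (0.16 to 1.42 when 1 library was left out), and none was called on all 12 libraries. Without control 2, 2 of 9 tested were called above the expectation, where 1.43% of all genes were. Their part in the Aspa departure was not tested.

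Slain1 (chromosome 14, 103887664 to 103942343), which promotes microtubule growth, had 23.9, 27.5 and 25.7 CPM in combination libraries, 20.9, 20.2 and 19.7 in curcumin libraries, 19.5, 19.2 and 18.1 in swimming libraries and 25.3, 27.5 and 25.8 in control libraries. Combination and control overlapped above both single treatments, which did not reach them, and the departure was 0.81 ± 0.13 (adjusted p = 0.0395). Emsy (chromosome 7, 98236344 to 98305990), which encodes a protein that binds BRCA2, averaged 102 ± 4.92 CPM in combination libraries, 72.0 ± 1.73 in curcumin libraries, 72.4 ± 4.87 in swimming libraries and 82.5 ± 6.96 in control libraries, with the combination above all other libraries. Its departure of 0.70 ± 0.12 had an adjusted p of 0.0488, next to the threshold.

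Itgb2, Lcp1 and Dok2 were called below the expectation. Itgb2 (chromosome 10, 77366086 to 77401542), the beta chain shared by the leukocyte integrins, had 144, 149.6 and 139 CPM in combination libraries, 219, 334 and 250.3 in curcumin libraries, 247, 208 and 271 in swimming libraries and 187, 197 and 171 in control libraries. Combination libraries were the lowest of the 12, and curcumin and swimming libraries all lay above control libraries. The expected level was 350.2 CPM and the observed mean 144 CPM, a departure of -1.28 ± 0.20 (adjusted p = 0.029). Lcp1 (chromosome 14, 75368541 to 75468282), an actin-bundling protein of leukocytes, averaged 215 ± 4.63 CPM in combination libraries, 344 ± 32.2 in curcumin libraries, 327 ± 45.7 in swimming libraries and 274 ± 9.79 in control libraries, with combination libraries again the lowest. Its departure was -0.93 ± 0.14 (adjusted p = 0.029). Dok2 (chromosome 14, 71003476 to 71015935), an adaptor of blood cell signalling, had 14.5, 11.6 and 13.5 CPM in combination libraries, 24.6, 34.0 and 25.9 in curcumin libraries, 24.1, 22.6 and 21.5 in swimming libraries and 18.3, 17.8 and 23.3 in control libraries. The departure was -1.30 ± 0.22 (adjusted p = 0.0395). Dok2 overlaps Xpo7 on the other strand.

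Pag1, an adaptor that recruits the kinase Csk, did not pass the test and stood below the expectation. It had 14.5, 15.1 and 16.6 CPM in combination libraries, 20.3, 26.3 and 24.5 in curcumin libraries, 23.6, 21.5 and 25.7 in swimming libraries and 16.6, 18.7 and 13.4 in control libraries. Its combination libraries overlapped those of control, and curcumin and swimming libraries lay above both. The departure was -1.16 ± 0.20 (adjusted p = 0.0548), or -1.27 with adjusted p = 0.00535 without control 2.

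Myeloid marker lists were read beside these genes. Of 17 tested macrophage markers 11 were negative and none was called. Of the 17, 2 had an unadjusted p under 0.05 below the expectation, where 5.57% of all genes did. Their median departure over the list was -0.15 (-0.54 to 0.03 when 1 library was left out). Their summed level was 4374 to 4441 CPM in combination libraries, 4723 to 7460.0 in curcumin libraries, 4251 to 4684 in swimming libraries and 5219 to 6784 in control libraries, and none of the list was at 0 in every library. Msr1, the macrophage scavenger receptor, averaged 111 ± 6.94 CPM in combination libraries, 202 ± 29.8 in curcumin libraries, 153 ± 23.6 in swimming libraries and 151 ± 10.7 in control libraries, and departed by -0.88 ± 0.18 (adjusted p = 0.081), or -0.83 with adjusted p = 0.0319 without control 2. Of 12 tested neutrophil markers 11 were negative, 6 had an unadjusted p under 0.05 below the expectation and none was called. Their median of -1.83 (-2.59 to -1.56 when 1 library was left out) was the lowest of the lists with at least 5 tested genes. The summed level of the list was 738 to 767 CPM in combination libraries, 861 to 931 in curcumin libraries, 758 to 824 in swimming libraries and 761 to 802 in control libraries, so the combination libraries overlapped swimming and control libraries in the sum. Mmp9, a gelatinase, and Padi4, an arginine deiminase, made up most of that sum, with means of 426 and 285 CPM in combination libraries, against 217 and 416 CPM in control libraries. S100a8, a subunit of the granule protein calprotectin, had 1.39, 1.33 and 1.39 CPM in combination libraries, 3.92, 12.2 and 6.04 in curcumin libraries, 11.6, 10.1 and 8.40 in swimming libraries and 2.79, 20.9 and 5.19 in control libraries. The combination was the lowest in every library, control 2 was the highest, and the departure of -2.48 ± 0.88 had an adjusted p of 0.317. Without control 2 it was -3.75 with adjusted p = 0.00508. In that fit 6 of the 12 neutrophil and 2 of the 17 macrophage markers were called below the expectation, where 1.82% of all genes were. Of 12 tested dendritic cell markers 11 were negative, with a median of -0.44 (-0.54 to -0.27 when 1 library was left out) and none called on all 12 libraries. Without control 2, 1 of 13 tested was called below the expectation, where 1.82% of all genes were. The part of these cell types in the departures of Itgb2, Lcp1 and Dok2 was not tested.

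Ptges and Slpi were also called below the expectation. Ptges (chromosome 2, 30779483 to 30819875), the inducible prostaglandin E synthase, had 21.8, 22.2 and 20.7 CPM in combination libraries, 37.8, 36.5 and 34.8 in curcumin libraries, 36.3, 35.5 and 43.0 in swimming libraries and 33.4, 34.3 and 26.0 in control libraries. Combination libraries were below all others, and the departure was -1.05 ± 0.17 (adjusted p = 0.0346). Slpi (chromosome 2, 164195990 to 164231015), a secreted inhibitor of neutrophil proteases, had 6.96, 6.24 and 6.07 CPM in combination libraries, 14.0, 17.3 and 15.9 in curcumin libraries, 19.2, 20.4 and 23.1 in swimming libraries and 12.7, 17.5 and 19.5 in control libraries. Its curcumin, swimming and control means were 15.7, 20.9 and 16.6 CPM, so that the combination alone stood low, with a departure of -1.63 ± 0.23 (adjusted p = 0.022). Of 19 NF-kB and cytokine genes 16 were negative, 6 had an unadjusted p under 0.05 below the expectation (5.57% of all genes did) and none was called. The list's median was -0.51 (-0.53 to -0.38 when 1 library was left out). Csf3, the growth factor of neutrophils, averaged 26.8 ± 3.05 CPM in combination libraries, 44.3 ± 10.7 in curcumin libraries, 59.1 ± 14.4 in swimming libraries and 39.2 ± 4.83 in control libraries, and departed by -1.31 ± 0.28 (adjusted p = 0.0901). Without control 2 its departure was -1.42 with adjusted p = 0.0208. In that fit 5 of the 19 were called below the expectation, where 1.82% of all genes were. Among 21 chemokines 13 were negative, 8 were positive and none was called. Their departures ran from -3.41 to 2.40, with a median of -0.38 (-0.43 to -0.24 when 1 library was left out). Of the 21, 6 had an unadjusted p under 0.05 below the expectation (5.57% of all genes did) and 0 above it. Cxcl1, a neutrophil attractant, had 10.8, 10.7 and 12.9 CPM in combination libraries, 32.9, 12.7 and 22.4 in curcumin libraries, 47.3, 56.9 and 48.3 in swimming libraries and 4.54, 42.9 and 11.96 in control libraries, so control 2 was far above control 1 and 3, and its departure of -2.34 ± 0.80 had an adjusted p of 0.305. Without control 2 it was -3.61 with adjusted p = 0.00271.

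Gbe1, Unc13a and Cwc22 completed the genes below the expectation. Gbe1 (chromosome 16, 70110837 to 70366604), the branching enzyme of glycogen synthesis, had 18.9, 19.6 and 18.8 CPM in combination libraries, 30.9, 31.1 and 29.9 in curcumin libraries, 32.6, 39.5 and 29.1 in swimming libraries and 21.6, 25.9 and 20.7 in control libraries. Both single treatments lay above control without overlap, and the combination lay below it. The expected 45.5 CPM compared with 19.1 CPM observed, a departure of -1.25 ± 0.17 (adjusted p = 0.022). Unc13a (chromosome 8, 72077061 to 72124401), known for vesicle priming in neurons, averaged 11.4 ± 0.747 CPM in combination libraries, 18.3 ± 1.18 in curcumin libraries, 21.8 ± 2.06 in swimming libraries and 16.9 ± 0.924 in control libraries, with a departure of -1.06 ± 0.16 (adjusted p = 0.029), and overlaps Colgalt1 on the other strand. Cwc22 (chromosome 2, 77711503 to 77776719), a spliceosome factor, had 45.1, 42.2 and 45.2 CPM in combination libraries, 186, 237 and 226 in curcumin libraries, 148, 162 and 119 in swimming libraries and 47.8, 85.6 and 139 in control libraries. Its control libraries spread widely, and its departure was -2.94 ± 0.39 (adjusted p = 0.022). Cwc22 has near-identical copies in the mouse genome, and how their shared reads were counted is not given in the sources used here, so this value is uncertain.

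Hypoxia-inducible and glycolytic genes were mostly negative, with no gene called on all 12 libraries. Of 19 hypoxia-inducible genes all 19 were negative and 13 had an unadjusted p under 0.05 below the expectation, where 5.57% of all genes did. Their median was -0.76, against 0.003 over all genes, and ran from -1.08 to -0.59 when 1 library was left out. Summed over the list, the level was 1856 to 1889 CPM in combination libraries, 1994 to 2474 in curcumin libraries, 3047 to 3511 in swimming libraries and 1529 to 2974 in control libraries. Swimming libraries were all above the control libraries, and combination libraries all below curcumin and swimming libraries. The glycolysis list held 19 rows of the table, with the symbol Aldoa on 2 of them. Of these, 18 were negative and 13 had an unadjusted p under 0.05 below the expectation, with a median of -0.59 (-0.77 to -0.46 when 1 library was left out). Control 2 had the highest level of the control libraries in both lists (0.30 against -0.04 and -0.60 for the hypoxia list). Without it, 12 of the 19 hypoxia-inducible genes and 12 of the 19 glycolysis rows were called below the expectation, and none above. Over all genes in that fit, 1.82% were called below it and 1.43% above it.

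Pgk1 and Ero1a are shown with their promoters because they are, with Pdk1, the members of both lists with the smallest p, and because HIF-1 is known to bind the core letters ACGTG. The promoters are RefSeq entries of build GRCm38.p6, 300 bases around the start, written 5′ to 3′ on the gene's strand. Capitals mark ACGTG or its reverse complement CACGT. Pgk1 lies at chrX:106186850-106187149 (+ strand) and Ero1a at chr14:45318523-45318822 (- strand).
Pgk1: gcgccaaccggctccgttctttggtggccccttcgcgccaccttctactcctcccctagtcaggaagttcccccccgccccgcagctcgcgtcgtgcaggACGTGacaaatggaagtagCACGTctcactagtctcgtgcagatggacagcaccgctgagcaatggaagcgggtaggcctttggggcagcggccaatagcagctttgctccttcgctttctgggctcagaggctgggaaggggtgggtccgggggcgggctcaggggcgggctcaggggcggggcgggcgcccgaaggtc
Ero1a: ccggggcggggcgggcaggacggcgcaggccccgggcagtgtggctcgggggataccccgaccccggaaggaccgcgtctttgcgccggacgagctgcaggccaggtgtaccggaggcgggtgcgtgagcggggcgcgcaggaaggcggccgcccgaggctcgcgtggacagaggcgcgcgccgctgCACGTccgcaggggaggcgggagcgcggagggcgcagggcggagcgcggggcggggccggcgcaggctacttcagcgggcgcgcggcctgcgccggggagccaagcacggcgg
The Pgk1 window held 2 matches, which did not overlap, and the Ero1a window 1. Both Pdk1 starts listed there held 0 matches to these letters. No other form of the core was searched. The letters GCGTG, which occur in the first Pdk1 window and in the Ero1a window, were not counted. Of 37 tested symbols of both lists, 34 had an entry. Of their 49 promoters, 27 (55.1%) held ACGTG on either strand, against 6447 of all 32851 promoters (19.6%). Hypoxia-inducible and glycolytic genes are known HIF-1 targets, so a higher share describes the choice of lists and says nothing of the departures. All promoters were not matched to these in base content. A match describes the letters in the window, and nothing about binding was measured.

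Pgk1, which makes ATP in glycolysis, had 422, 374 and 405 CPM in combination libraries, 542, 535 and 487 in curcumin libraries, 588, 697 and 592 in swimming libraries and 374, 515 and 345 in control libraries. Swimming libraries were the highest, and combination libraries overlapped control libraries. The departure was -0.99 ± 0.19 (adjusted p = 0.0612). Ero1a, an oxidase of protein folding that hypoxia induces, had 157, 139.6 and 163 CPM in combination libraries, 193, 249.9 and 232 in curcumin libraries, 291, 364 and 284 in swimming libraries and 212, 201 and 117 in control libraries. The order of the means was swimming, curcumin, control, combination, the expected level was 398 CPM, and the departure was -1.38 ± 0.27 (adjusted p = 0.0628). Pdk1, which holds pyruvate back from the mitochondrion, averaged 51.1 ± 4.24 CPM in combination libraries, 72.3 ± 3.06 in curcumin libraries, 102 ± 5.89 in swimming libraries and 70.6 ± 17.8 in control libraries, and departed by -1.04 ± 0.20 (adjusted p = 0.0624). Hk2, the first enzyme of glycolysis, averaged 116 ± 6.61 CPM in combination libraries, 151 ± 7.75 in curcumin libraries, 208 ± 3.76 in swimming libraries and 154 ± 35.5 in control libraries. Its departure of -0.81 ± 0.18 had an adjusted p of 0.116. Without control 2 these 4 genes passed, with departures of -1.18 with adjusted p = 0.000517 for Pgk1, -1.48 with adjusted p = 0.0145 for Ero1a, -1.26 with adjusted p = 0.000434 for Pdk1 and -1.02 with adjusted p = 0.000436 for Hk2. Vegfa, the vessel growth factor and a hypoxia target picked after its values were seen, averaged 186 ± 3.08 CPM in combination libraries, 217 ± 17.2 in curcumin libraries, 256 ± 42.2 in swimming libraries and 148 ± 44.9 in control libraries, with a departure of -1.01 ± 0.27 (adjusted p = 0.181), or -1.11 with adjusted p = 0.0412 without control 2.

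**Figure D3:**
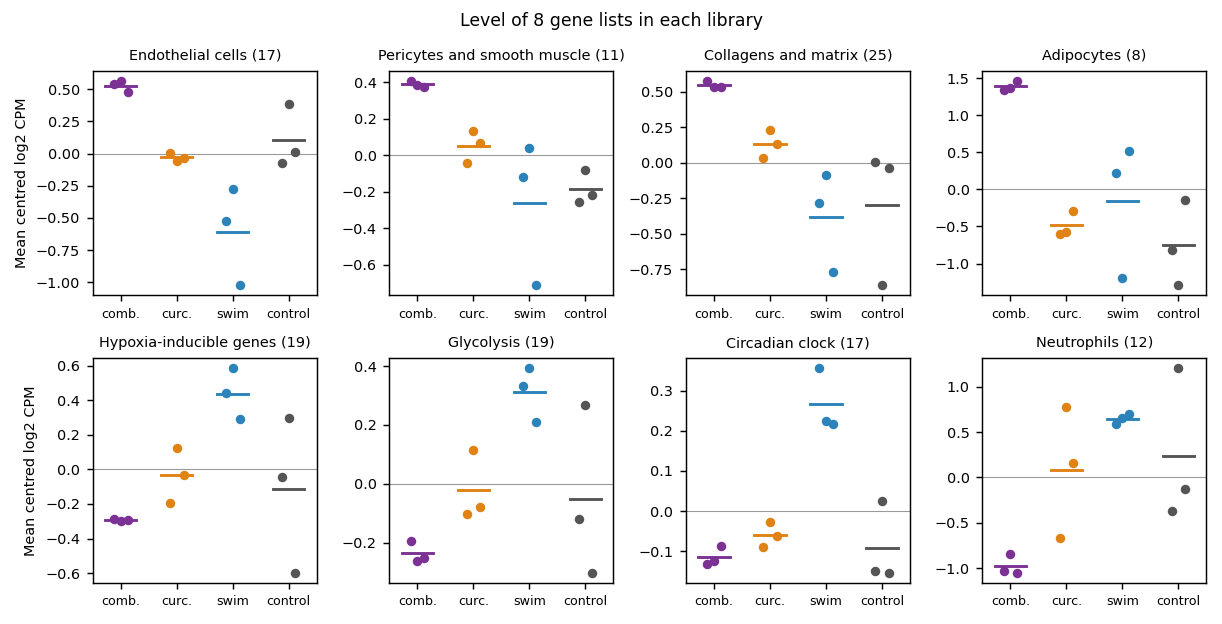
Mean centred log2 CPM of the tested genes of 8 lists (number of rows in brackets) in each library, with bars at group means; 0 is the mean over the 12 libraries. Endothelial genes were lowest and hypoxia-inducible, glycolytic, clock and neutrophil genes highest in swimming libraries by group mean, and the control libraries spread more than the combination libraries in every panel.

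Circadian clock genes had their swimming libraries apart. Of 17 tested, 13 were negative and none was called. Of the 17, 10 had an unadjusted p under 0.05 below the expectation, where 5.57% of all genes did. The list's median was -0.44 (-0.55 to -0.39 when 1 library was left out). Summed over the list, the level was 788 to 843 CPM in combination libraries, 805 to 813 in curcumin libraries, 1186 to 1273 in swimming libraries and 705 to 937 in control libraries, so all swimming libraries lay above all others. Per1, a clock repressor that light and stress hormones also induce, was picked after its values were seen and had 80.3, 86.2 and 70.3 CPM in combination libraries, 49.4, 47.1 and 44.4 in curcumin libraries, 237, 152 and 248 in swimming libraries and 31.7, 85.9 and 71.2 in control libraries. The swimming libraries were the highest, yet the departure of -1.004 ± 0.39 had an adjusted p of 0.373. Cry2, another repressor of the clock loop, averaged 11.2 ± 0.153 CPM in combination libraries, 16.5 ± 1.30 in curcumin libraries, 21.7 ± 4.00 in swimming libraries and 16.1 ± 3.32 in control libraries, with a departure of -0.99 ± 0.24 (adjusted p = 0.151). Per2 departed by -0.82 ± 0.23 (adjusted p = 0.204). Without control 2, Cry2 passed (-1.07 with adjusted p = 0.036). In that fit 4 of the 17 were called, all below the expectation, where 1.82% of all genes were. Without swimming 2, Per2 passed (-1.02, adjusted p = 0.0219). The hour at which tumours were taken is not given in the labels.

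Nrf2 and matrix protease genes were read for the pathways linked to curcumin and to invasion. Of 18 Nrf2 targets 17 were negative and none was called. Of the 18, 5 had an unadjusted p under 0.05 below the expectation, where 5.57% of all genes did. The list's median was -0.35 (-0.43 to -0.25 when 1 library was left out). Me1, which supplies NADPH, averaged 33.3 ± 2.46 CPM in combination libraries, 37.6 ± 1.78 in curcumin libraries, 30.0 ± 3.16 in swimming libraries and 24.7 ± 1.505 in control libraries. All libraries of the 3 treated groups lay above all control libraries, with a departure of -0.45 ± 0.15 (adjusted p = 0.27). Of 16 proteases and inhibitors 5 had an unadjusted p under 0.05 below the expectation and 1 above it, and none was called. Over all genes, 5.57% had such a p below the expectation and 5.48% above it. Mmp3, stromelysin 1, had 69.9, 58.3 and 71.2 CPM in combination libraries, 118, 111 and 116 in curcumin libraries, 187, 223 and 193 in swimming libraries and 74.4, 169 and 93.1 in control libraries. Swimming libraries were the highest and combination libraries the lowest, and the departure was -1.63 ± 0.32 (adjusted p = 0.0654), or -2.05 with adjusted p = 0.000157 without control 2. Without that library 3 of the 18 Nrf2 targets and 4 of the 16 protease genes were called, all below the expectation. In that fit 1.82% of all genes were called below it.

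Several groups showed departures near those of all genes. Type I interferon-stimulated genes, of which 25 were tested, had a median of 0.01 (-0.14 to 0.12 when 1 library was left out), 0 called and 1 with an unadjusted p under 0.05. Their summed level was 2714 to 2731 CPM in combination libraries, 2624 to 2749 in curcumin libraries, 1811 to 2485 in swimming libraries and 1842 to 2207 in control libraries, so all combination and curcumin libraries lay above all swimming and control libraries. Ribosomal protein genes (29 tested) had a median of 0.02, 0 called and 0 with an unadjusted p under 0.05. The ribosomal median was -0.13 without control 2, with 2 of 29 positive, and 0.12 without control 1, with 21 of 29 positive. Cell cycle genes (28 tested) had a median of 0.04, 0 called and 1 with an unadjusted p under 0.05, Ccne2, with a departure of 1.49 ± 0.50 (adjusted p = 0.289). Without control 2 its departure was 1.85 with adjusted p = 0.0158 and the cell cycle median was 0.37, with 27 of 28 positive. In that fit 2 of the 28 were called above the expectation, where 1.43% of all genes were. The cell cycle median was -0.19 without control 1, with 4 of 28 positive, and -0.11 without swimming 3, with 6 of 28 positive. The sign of these 3 medians thus depended on the libraries used. For these lists a p that misses the threshold does not show that the effects were additive.

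**Figure D4:**
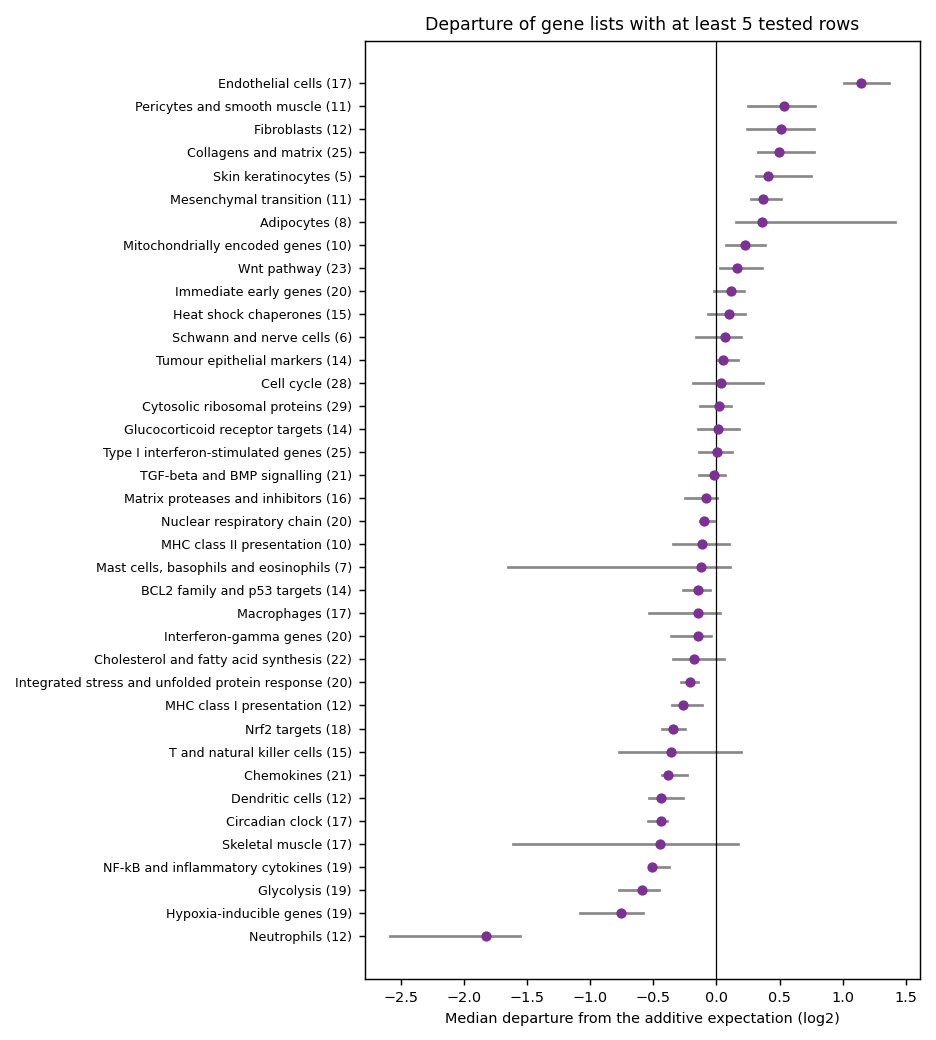
Median departure (log2, points) of each list with at least 5 tested rows, number of rows in brackets, with a line from the lowest to the highest median when 1 library is left out. Endothelial cells had the highest median, 1.15, and neutrophils the lowest, -1.83, and among the lines that crossed 0 were those of the muscle, T and natural killer, and mast cell lists.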

How the data were processed

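RNA of 12 tumour samples was sequenced. The deposited table holds, per gene, whole read counts that the authors made with HTSeq 0.9.1, per the labels, and FPKM values that the authors derived from them. For 184877 of 184877 values above 0, the FPKM equalled count over gene length and library total within a relative tolerance of 1e-05. The gene length column of the deposited table was used only for that check. The submitters' processing notes name cutadapt, TopHat2, HISAT2, DESeq 1.30.0 and GRCm39, whereas the labels' protocol names HISAT2 2.0.5 and mm9. Of 21795 genes matched to a GRCm38 annotation, 514 share their start, so coordinates are given as the deposited table has them.

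Low counts were filtered with filterByExpr by group, with 10 as its minimum count and 15 as its minimum total. Counts were scaled by TMM and tested in edgeR 4.0.16 (R 4.3.3, limma 3.58.1) with a quasi-likelihood F-test of the interaction on all 12 libraries, 8 residual degrees of freedom and Benjamini-Hochberg adjustment. Called means an adjusted p of 0.05 or below. CPM are TMM-scaled counts, and expected CPM are the control mean multiplied by both single fold changes. Standard errors are the log2 departure divided by the root of F. Mean centred levels used log2 CPM with a prior count of 2.

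Named genes had an ordinary symbol and at least 1 CPM in a group: the 12 called genes with the largest departure and the 5 with the smallest p per direction, filled up to 10 by p, and the 2 members of smallest p per list. Others are said to be picked after their values were seen. A gene that this rule names is not reported here. The members and the 41 lists were chosen with earlier results of these data known, and lists were not tested as sets. The scripts were checked on simulated data. Replicate pairs of 1 group all differed by more than counting noise. Alternatives were DESeq2 1.42.0, other scaling, filters, voom fits, a replicate block, linear additivity, summed combination libraries, a fold threshold and leaving out libraries. Robust moderation was added after the data were seen.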

Additional observations from a re-analysis of the deposited data

Results flagged for a closer look

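Each of the 19 called genes had a curcumin effect that differed with swimming, by the test of the interaction itself. The difference below is the curcumin effect with swimming (combination against swimming) minus that without it (curcumin against control), on the log2 scale.

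In genes above the expectation, the difference was 1.69 for Ptprb, from effects of 1.31 with swimming and -0.37 without it. For Plvap it was 1.32 (1.27 with and -0.05 without swimming). For Aplnr it was 2.64 (3.19 with and 0.55 without). For Adgrl4 it was 1.90 (1.56 with and -0.34 without). Meox2 differed by 2.03 (1.46 with and -0.57 without), and Sparcl1 by 1.57 (1.21 with and -0.36 without). Fmod differed by 2.16 (1.97 with and -0.19 without), and Erbb3 by 1.37 (0.86 with and -0.51 without). Aspa differed by 3.04 (2.98 with and -0.06 without). Slain1 differed by 0.81 and Emsy by 0.70, each with a positive effect with swimming (0.44 for Slain1 and 0.50 for Emsy).

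In genes below the expectation, the difference was -1.28 for Itgb2 (-0.75 with and 0.53 without swimming). It was -0.93 for Lcp1 (-0.60 with and 0.33 without) and -1.30 for Dok2 (-0.79 with and 0.51 without). Ptges differed by -1.05 (-0.83 with and 0.22 without), and Slpi by -1.63 (-1.70 with and -0.07 without). Gbe1 differed by -1.25 (-0.82 with and 0.43 without), and Unc13a by -1.06 (-0.94 with and 0.12 without). Cwc22, whose copies make its counts uncertain, differed by -2.94 (-1.69 with and 1.25 without).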

How the results depend on the processing

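All 19 called genes kept their sign under every alternative in which they were tested, which their selection for large departures made likely. The calls themselves moved: they were kept in 11 of 24 alternatives for Slain1, the fewest, and in 19 of 24 for Ptprb, the most. Against 19 calls (11 above and 8 below the expectation), DESeq2 gave 209 (117 and 92), RLE scaling 34 (23 and 11), no filter 40 (23 and 17), a mean count of at least 50 gave 32 (20 and 12), voom 22 (14 and 8), voom with weights by group 36 (19 and 17) and additivity on the linear CPM scale 47 (31 and 16). Robust moderation, added after the data were seen, gave 34 (22 and 12). All 19 were kept by DESeq2, RLE scaling, no filter, voom, linear additivity and robust moderation. Tested against a 1.5-fold departure, or with the combination libraries summed to 1, no gene passed (0 above and 0 below); edgeR had 383 and 590 genes at an unadjusted p under 0.05. The replicate block left 5 calls (3 above and 2 below), and 4 of them were among the 19. Same-numbered libraries of different groups correlated between -0.251 and 0.165 in their deviations from group means over 18 pairs (median 0.011). Different-numbered libraries correlated between -0.189 and 0.228 over 36 pairs (median 0). Of the 12 libraries, 5 correlated best with a library of their own number. The labels do not say whether the numbers pair the samples, and correlations over so few libraries cannot decide it. Leaving out 1 library, or control 2 and swimming 2 together, gave 0 to 984 calls, 0 to 504 above and 0 to 480 below the expectation. Without control 2 the counts were 448 (197 and 251). Eng, near 0 at first, became -0.005 without combination 2, -0.079 without swimming 2, -0.107 without control 2 and -0.197 without control 2 and swimming 2, within -0.197 to 0.102 over the left-out libraries. Flt1 became -0.09 without control 1, within -0.09 to 0.424; the cause was not tested. With 3 libraries per group, small departures were not detectable.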

Other observations

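Some genes of tumour cells and signalling are given by value, and none of them passed on all 12 libraries. Of 14 tested epithelial markers 3 had an unadjusted p under 0.05 above the expectation (5.48% of all genes did) and none was called. The list's median was 0.05 (0.01 to 0.17 when 1 library was left out). Epcam departed by 0.57 ± 0.11 (adjusted p = 0.0583), with both single treatments below control and the combination within the control range. Esrp2, a splicing regulator of epithelial cells, averaged 28.4 ± 3.34 CPM in combination libraries, 15.4 ± 0.995 in curcumin libraries, 19.0 ± 4.54 in swimming libraries and 22.7 ± 2.28 in control libraries, a departure of 1.14 ± 0.24 (adjusted p = 0.0839). Among 20 immediate early genes the median was 0.11 (-0.02 to 0.22 when 1 library was left out) and members went both ways. Nr4a1, an orphan nuclear receptor induced by many stimuli, had 55.4, 62.4 and 53.02 CPM in combination libraries, 20.4, 26.8 and 22.5 in curcumin libraries, 38.6, 31.8 and 35.3 in swimming libraries and 22.8, 32.8 and 30.6 in control libraries, the combination being the highest, with a departure of 1.00 ± 0.21 (adjusted p = 0.0846). Ier3, a survival gene of the same list, averaged 58.8 ± 2.29 CPM in combination libraries, 84.6 ± 11.6 in curcumin libraries, 142 ± 8.89 in swimming libraries and 84.2 ± 31.7 in control libraries and departed by -1.28 ± 0.28 (adjusted p = 0.118). Without control 2 all 4 passed, with departures of 0.51 with adjusted p = 0.017 for Epcam, 1.11 with adjusted p = 0.0325 for Esrp2, 0.89 with adjusted p = 0.0325 for Nr4a1 and -1.62 with adjusted p = 0.000436 for Ier3.

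Il1rl1, the receptor of interleukin 33, had 10.6, 8.54 and 10.4 CPM in combination libraries, 6.15, 7.97 and 7.84 in curcumin libraries, 3.28, 3.30 and 3.07 in swimming libraries and 10.3, 8.05 and 5.54 in control libraries. Swimming libraries were below all others, and the departure was 1.73 ± 0.32 (adjusted p = 0.0558). Irf1, an interferon response factor, had 132, 135 and 126 CPM in combination libraries, 196, 240.3 and 206 in curcumin libraries, 177, 153 and 184 in swimming libraries and 171, 172 and 166 in control libraries, with the combination lowest and curcumin highest, and departed by -0.72 ± 0.13 (adjusted p = 0.0558). Grem1, a secreted antagonist of bone morphogenetic proteins, had 139, 139.6 and 141 CPM in combination libraries, 93.9, 123 and 105 in curcumin libraries, 19.7, 31.1 and 13.9 in swimming libraries and 35.2, 43.3 and 29.7 in control libraries. The combination and curcumin libraries were above all swimming and control libraries, and the departure was 1.12 ± 0.32 (adjusted p = 0.207). Trib3, a stress-induced pseudokinase, averaged 6.84 ± 0.312 CPM in combination libraries, 17.0 ± 3.27 in curcumin libraries, 22.3 ± 4.46 in swimming libraries and 19.7 ± 10.4 in control libraries, and departed by -1.49 ± 0.42 (adjusted p = 0.206). Plin4, which coats lipid droplets, averaged 4.54 ± 0.159 CPM in combination libraries, 1.47 ± 0.345 in curcumin libraries, 0.623 ± 0.331 in swimming libraries and 1.71 ± 1.55 in control libraries, and departed by 3.06 ± 0.80 (adjusted p = 0.18). Mast cell, basophil and eosinophil markers (7 tested) had a median of -0.12 (-1.65 to 0.11 when 1 library was left out). T and natural killer cell markers (15 tested) had a median of -0.36 (-0.78 to 0.20), which was positive without swimming 3. Without swimming 2, 2 of 16 tested were called below the expectation, where 47 of all 13840 genes were. MHC class I genes (12 tested) had a median of -0.27 (-0.35 to -0.11). None of these 3 lists had a called gene on all 12 libraries. Without control 2 the mast cell and T cell lists had 1 each above the expectation, where 1.43% of all genes were called. Without control 2 the departures were 1.72 with adjusted p = 0.0191 for Il1rl1, -0.73 with adjusted p = 0.0151 for Irf1, 0.97 with adjusted p = 0.1 for Grem1, -2.02 with adjusted p = 0.00156 for Trib3 and 3.5 with adjusted p = 0.0121 for Plin4.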
